A study of Macaca mulatta with 27 samples.

Results

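The genes described here belong to the Nodal-Activin branch of TGF-β signalling, and they were followed in rhesus monkey embryonic stem cells before and after reprogramming toward naive pluripotency. The list holds 8 genes, NODAL, TDGF1, GDF3, LEFTY2, CER1, FOXH1, SMAD7, and INHBA, of which 7 were found by symbol among the 17967 genes of the count tables. LEFTY2 was not analysed here. Nodal, GDF3, and the activins are secreted ligands that bind activin receptors, Nodal and GDF3 with the help of the membrane co-receptor encoded by TDGF1 (also called CRIPTO). The receptors phosphorylate SMAD2 and SMAD3, which join SMAD4 and enter the nucleus, where FOXH1 is a DNA-binding partner. Several targets of the pathway restrain it, among them the secreted antagonists encoded by LEFTY2 and CER1 and the inhibitory SMAD7. Primed primate pluripotent stem cells are known to depend on activin and FGF signalling, and high Nodal-Activin signalling is known to drive mesendoderm formation in the embryo.

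RNA was sequenced in 27 libraries of 8 groups. Every group was made from LyonES-tGFP-(S3), a rhesus embryonic stem cell line that is a single clone and carries a tauGFP transgene under the ubiquitous CAG promoter together with a lentiviral STAT3-ERT2, a STAT3 that tamoxifen activates. There were 6 libraries of primed cells and 3 for each of 7 protocols, labelled TL2i, TL-CDK8i, E-NHSM, LCDM (EPS), NHSM-v, t2iLGöY, and 4i/L/b. TL2i cells were grown with tamoxifen, LIF, and inhibitors of MEK and GSK3β. In TL-CDK8i these inhibitors were replaced by a chemical inhibitor of CDK8 and CDK19, with tamoxifen and LIF kept. The other 5 protocols are known by the names of their media. The authors applied these 5 without tamoxifen, so that STAT3-ERT2 stayed inactive. As all groups descend from 1 clone and nothing states that replicates came from separate cultures, the p-values measure the spread between these libraries, which may be technical. No other line was analysed here.

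Libraries held between 7111886 and 20760914 counts, with a median of 12201171. Levels are given as CPM, counts scaled to a common library size with TMM over all libraries, which are not corrected for transcript length and are therefore compared between groups and not between genes. A level of 3 counts, which is 0.138 to 0.422 CPM depending on the library, is the limit that a count of 0 allows, and it covers counting error only. The labelled cell type was checked with 10 pluripotency markers. Their summed level lay between 6017 and 7068 CPM in primed libraries and between 7099 and 7185 CPM in E-NHSM libraries. It was 1904 to 2592 CPM in TL-CDK8i libraries and at most 629 CPM in each library of LCDM, t2iLGöY, NHSM-v, TL2i, and 4i/L/b cells, which are named the 5 low-marker protocols from here on. In all of them but TL2i, NANOG was at or under the limit of detection. POU5F1 had a mean of 1185 CPM in primed cells and means from 0.296 CPM in NHSM-v to 6.43 CPM in TL2i. Among the 10 markers, only SOX2 in LCDM had a mean above its primed mean, at 322 against 273 CPM. DNMT3B, at a mean of 3115 CPM, was the largest part of the primed sum. In the libraries of the 5 low-marker protocols the summed level of 10 neural markers was between 810 and 4754 CPM, against 161 to 222 CPM in primed libraries. In bulk RNA, fewer cells that express a gene and less RNA per cell cannot be told apart, and the part of these marker levels in the results was not tested.

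Each protocol was first set against the primed cells, to see which pathway genes changed during reprogramming. TDGF1 was lower in all 7 protocols. NODAL, FOXH1, and SMAD7 were lower in 6, and GDF3 was lower in 5. In E-NHSM, NODAL, GDF3, and SMAD7 were not called, and their libraries lay inside the primed range. INHBA moved in both directions, higher in NHSM-v, 4i/L/b, and TL-CDK8i and lower in the other 4 protocols. CER1 gave the least certain values, since it differed between the primed libraries themselves.

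The counts of called members are read against the share of all genes that passed the same test (edgeR's quasi-likelihood test, adjusted p under 0.05). With E-NHSM, 26.2% of the genes tested were called, and 3 of the 7 members were, 1 of them higher (FOXH1) and 2 lower (TDGF1 and INHBA). With NHSM-v, 58.6% of genes and all 7 members were called, with 6 members lower. With 4i/L/b, 55.6% of genes and 6 members were called, with 5 lower. TL2i changed 50.7% of genes and lowered 6 members. With t2iLGöY, 54.3% of genes were called and all 7 members were lower. LCDM changed 57.1% of genes and lowered 6 members. With TL-CDK8i, 46.1% of genes were called, and 4 members were lower and 2 higher. Lower calls alone made up 15.1% of genes with E-NHSM, 30.6% with NHSM-v, 29% with 4i/L/b, 25.2% with TL2i, 27.2% with t2iLGöY, 28.9% with LCDM, and 23.8% with TL-CDK8i. The 7 comparisons share the primed libraries and are not independent of each other.

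**Figure D1:**
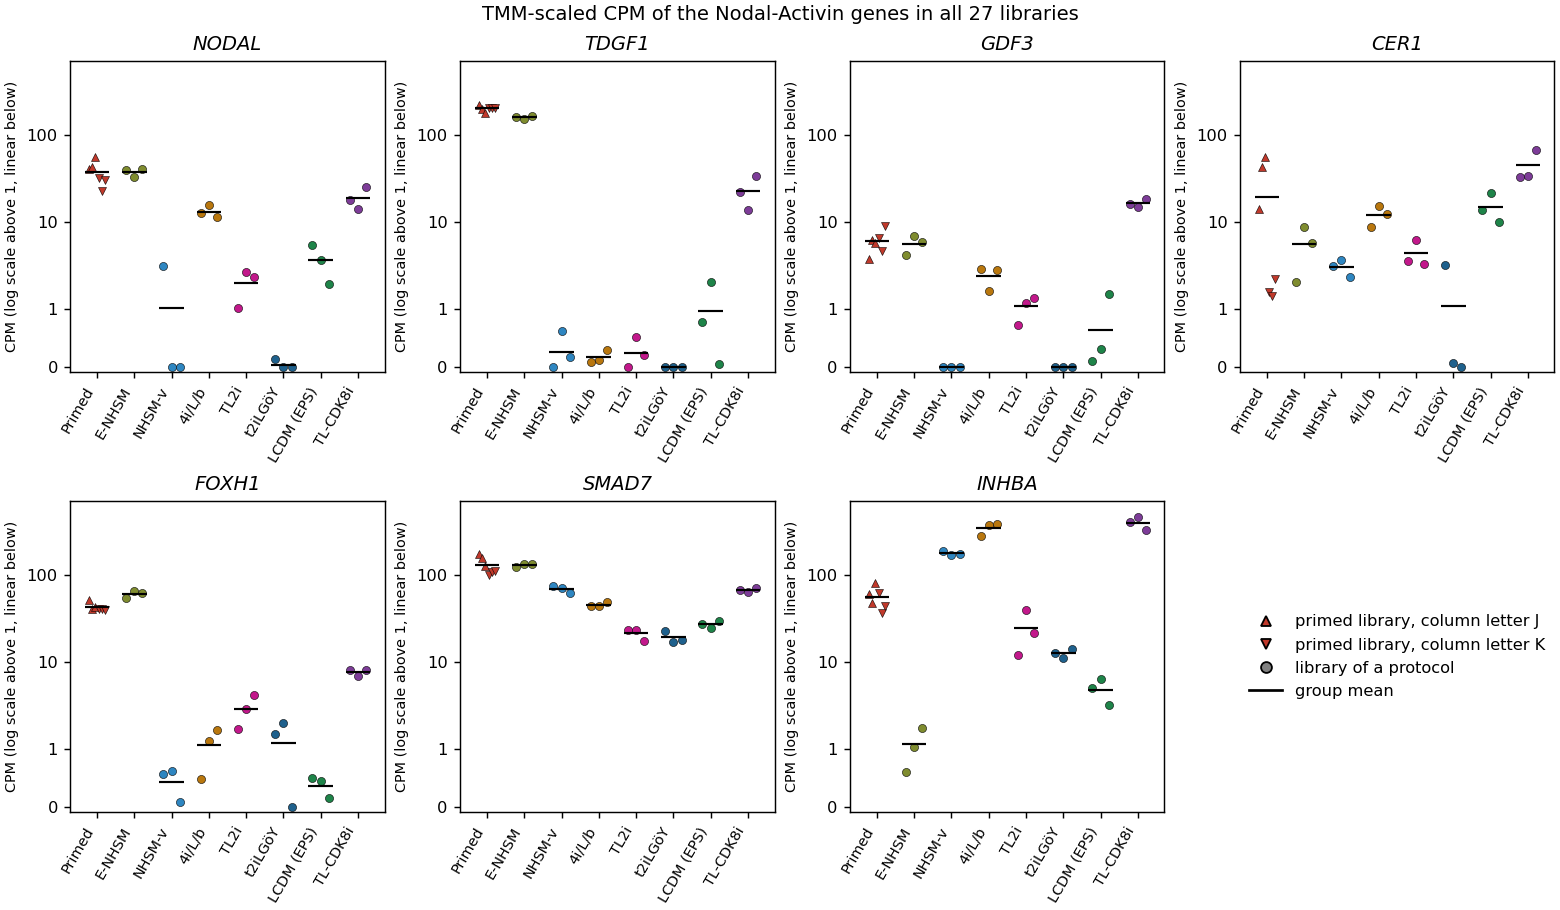
CPM of the 7 genes in each of the 27 libraries, on an axis that is linear below 1 CPM and logarithmic above, with 1 panel per gene, points by group, lines at the group means, and triangles for primed libraries by column letter. The TDGF1 points of primed and E-NHSM cells lie between 151 and 219 CPM, those of TL-CDK8i between 13.6 and 33.4 CPM, and those of the other 5 protocols at 2.08 CPM or lower.

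NODAL, the ligand that gives the pathway its name, was measured at 22.7 CPM in the lowest primed library and 55.9 CPM in the highest, with a median of 36.7 CPM. The E-NHSM libraries held 39.7, 33.2, and 40.7 CPM, inside the primed range, and the log2 fold change was 0.02 with an SE of 0.23 (edgeR adjusted p = 0.96). In TL-CDK8i cells the libraries held 17.7, 14.0, and 25.3 CPM, so that the highest overlapped the lowest primed library. Their mean of 19.02 ± 5.75 CPM (SD, n = 3) was 1.97-fold below the primed mean of 37.4 ± 11.6 CPM (SD, n = 6), with an edgeR adjusted p of 0.0088. This call was lost without TL-CDK8i replicate 2 (adjusted p = 0.058), with all 8 groups in one fit (adjusted p = 0.07), and with the primed libraries lettered K alone, against which the log2 fold change was -0.58 (adjusted p = 0.053). The 4i/L/b libraries held 12.5, 15.6, and 11.3 CPM, below every primed library, with a mean 2.84-fold lower (log2 fold change -1.56, SE 0.27, edgeR adjusted p = 0.00028).

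The remaining protocols left little NODAL. LCDM libraries held 5.45, 3.69, and 1.97 CPM, 10.1-fold below primed cells on average, and TL2i libraries held 1.03, 2.69, and 2.33 CPM, 18.6-fold below. Both differences were called (log2 fold changes -3.30 and -4.23, edgeR adjusted p = 3.8e-06 and 7.4e-07). In NHSM-v the signal came from a single library, with 27 counts or 3.1 CPM in replicate 1 and 0 counts in the other two. The fitted log2 fold change of -5.32 (SE 0.76, adjusted p = 2.4e-05) became -11.61 without that library. In t2iLGöY, 2 counts were found in replicate 1 and 0 in the others, which places NODAL at least 173-fold lower than in primed cells. By mean level the order was E-NHSM, primed, TL-CDK8i, 4i/L/b, LCDM, TL2i, NHSM-v, and t2iLGöY. Of these neighbours, only 4i/L/b and LCDM had library ranges that did not overlap.

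GDF3, a ligand related to Nodal that is known from pluripotent cells, had low levels throughout, from 3.78 CPM to 9.07 CPM in primed libraries with a median of 6 CPM. In TL-CDK8i cells it moved opposite to NODAL. These libraries held 16.1, 15.0, and 18.4 CPM, above every primed library, and their mean of 16.5 ± 1.70 CPM was 2.74-fold higher (log2 fold change 1.42, SE 0.30, edgeR adjusted p = 0.0015). E-NHSM libraries held 4.13, 6.93, and 5.92 CPM and did not differ from primed cells by more than the spread between libraries (adjusted p = 0.91). In 4i/L/b the values of 2.9, 1.6, and 2.8 CPM lay below the primed range, and the call (log2 fold change -1.34, SE 0.48, adjusted p = 0.028) was lost without primed replicate K3 (adjusted p = 0.067) and without any single 4i/L/b library (adjusted p = 0.063 to 0.12). TL2i and LCDM cells had still less GDF3, with means of 1.08 ± 0.314 and 0.641 ± 0.741 CPM (SD, n = 3 each), 5.56-fold and 9.38-fold below primed cells (adjusted p = 0.0016 and 0.0031). The LCDM libraries were uneven, at 0.111, 0.323, and 1.49 CPM, and without replicate 3 the log2 fold change went from -3.18 to -4.65 (adjusted p = 0.00049). No count of GDF3 was found in any NHSM-v or t2iLGöY library, which places it at least 17.5-fold and at least 27.8-fold lower than in primed cells. Only primed and E-NHSM cells, and TL2i and LCDM cells, overlapped among the groups with counts when these were ordered by mean.

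INHBA, which encodes the βA subunit shared by activin A and some inhibins, was higher than in primed cells in 3 protocols and lower in 4. Primed libraries held between 36.2 and 81.2 CPM with a median of 54.3 CPM. The TL-CDK8i libraries held 406, 456, and 329 CPM, the 4i/L/b libraries 281, 371, and 380 CPM, and the NHSM-v libraries 187, 167, and 175 CPM. Every one of these 9 libraries exceeded every primed library. The means were 7.15-fold, 6.19-fold, and 3.17-fold above the primed mean of 55.5 ± 16.1 CPM (log2 fold changes 2.81, 2.58, and 1.62, each with an SE of 0.19 to 0.20, edgeR adjusted p at most 4e-06). In E-NHSM the gene was nearly lost, with 0.61, 1.05, and 1.78 CPM, 48.4-fold below primed cells (log2 fold change -5.60, SE 0.36, adjusted p = 2.7e-09). E-NHSM was thus lowest for INHBA, while its NODAL levels lay inside the primed range.

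The other 3 protocols also lowered INHBA. LCDM libraries held 5, 6.32, and 3.19 CPM, 11.5-fold below primed cells, and t2iLGöY libraries held 12.8, 11.3, and 14.0 CPM, 4.38-fold below (edgeR adjusted p = 3.8e-07 and 6.3e-06). TL2i libraries varied from 12 to 39.4 CPM, and the highest exceeded the lowest primed library, with a call of lower at a log2 fold change of -1.19 (SE 0.33, adjusted p = 0.0086). In the order of means, TL-CDK8i and 4i/L/b overlapped, as did primed and TL2i, and TL2i and t2iLGöY. NHSM-v lay below 4i/L/b and above primed cells without overlap.

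INHBA is also expressed by fibroblasts and other mesenchymal cells, and 9 fibroblast markers were therefore summed. Their level was 1276 to 2512 CPM in primed libraries, with DCN and LUM at 0. The 3 groups in which INHBA rose had the highest sums. These were 8483 to 9099 CPM in NHSM-v, 12052 to 15778 CPM in 4i/L/b, and 8780 to 11326 CPM in TL-CDK8i. All 9 markers were above the limit of detection in these groups, but also in TL2i and LCDM, where INHBA was lower. In TL2i, t2iLGöY, LCDM, and TL-CDK8i, that is in 4 of the 7 protocols, the 3 libraries had the same order by INHBA as by fibroblast sum. E-NHSM, with the least INHBA, had the lowest sum, 481 to 525 CPM. The markers and INHBA did not move together everywhere, since TL2i (3320 to 6192 CPM) and t2iLGöY (3553 to 4175 CPM) exceeded the primed sums and had lower INHBA. The t2iLGöY sum was mostly COL1A1, with a mean of 3135 CPM. DCN and LUM were at 0 there, and THY1 (13.6 against 74.3 CPM) and COL1A2 (309 against 458 CPM) were below their primed means. COL3A1, PDGFRB, POSTN, and FBLN1 were above theirs. In TL2i only THY1 was below its primed mean, at 13.1 CPM. The part of fibroblast-like expression in the INHBA levels was not tested.

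**Figure D2:**
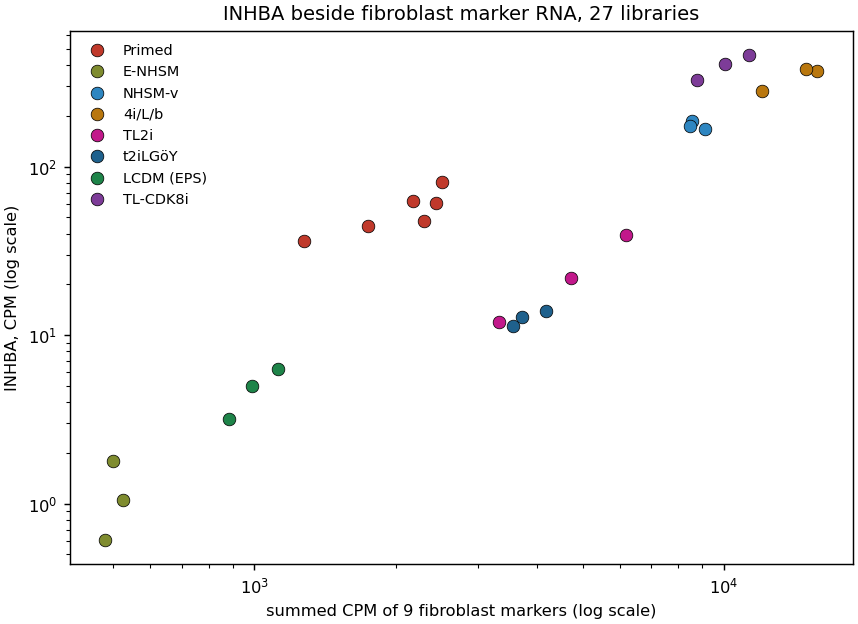
INHBA level against the summed level of 9 fibroblast markers, both in CPM on logarithmic axes, with 1 point for each of the 27 libraries coloured by group. The NHSM-v, 4i/L/b, and TL-CDK8i points lie at the upper right, with INHBA at 167 CPM or more, and the TL2i and t2iLGöY points lie to the right of all primed points with INHBA at 39.4 CPM or less.

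TDGF1, whose protein is the co-receptor for Nodal and GDF3, was the only member called lower in every protocol. Primed libraries were uniform, from 178 to 219 CPM with a median of 202 CPM. E-NHSM libraries held 161, 151, and 166 CPM, all below the primed range, and the mean of 160 ± 7.49 CPM was 1.26-fold lower (log2 fold change -0.33, SE 0.09, edgeR adjusted p = 0.01). This small difference was no longer called without E-NHSM replicate 2 (adjusted p = 0.075) or with all groups in a single fit (adjusted p = 0.33). TL-CDK8i libraries held 21.9, 13.6, and 33.4 CPM, 8.73-fold below primed cells on average (log2 fold change -3.15, SE 0.21, adjusted p = 4.4e-08). They were separated both from E-NHSM above and from the remaining 5 protocols below.

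Among those 5 protocols, TDGF1 was at or near the limit of detection in NHSM-v, TL2i, 4i/L/b, and t2iLGöY. In LCDM it was above that limit in replicates 1 and 2, with 14 and 45 counts. LCDM libraries held 0.778, 2.08, and 0.0531 CPM, 207-fold below primed cells. NHSM-v and TL2i means were 0.270 ± 0.325 and 0.246 ± 0.265 CPM, 742-fold and 814-fold below, with 6 and 9 counts in the highest library. At most 3 counts were found in any 4i/L/b library and 0 in t2iLGöY, which gives decreases of at least 543-fold and at least 927-fold. All 5 differences were called (edgeR adjusted p at most 1.8e-09). Single libraries moved these values, since the log2 fold change went from -7.58 to -8.85 without LCDM replicate 2, from -9.51 to -10.84 without NHSM-v replicate 2, and from -9.69 to -8.99 without TL2i replicate 1, while leaving out TL2i replicate 2 moved it to -11. TDGF1 has processed pseudogene copies in the human genome, and how reads shared with such copies were counted could not be examined here, so that values near the limit of detection are uncertain. The library ranges of LCDM, NHSM-v, TL2i, and 4i/L/b overlapped from each neighbour to the next in the order of means.

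FOXH1, the DNA-binding partner of the activated SMADs, was measured at 39.5 to 51.0 CPM in primed libraries, with a median of 40.6 CPM. In E-NHSM, where it was the only member called higher, it was measured at 54.3, 64.6, and 61.2 CPM, all above the primed range. The mean of 60.04 ± 5.24 CPM was 1.41-fold the primed mean of 42.5 ± 4.33 CPM (log2 fold change 0.50, SE 0.14, edgeR adjusted p = 0.011). The call was lost without E-NHSM replicate 2 (edgeR adjusted p = 0.075), without E-NHSM replicate 3 (0.054), and against the primed libraries lettered J alone (0.067). With all 8 groups in one fit it was lost as well (0.23). TL-CDK8i libraries held 8.06, 6.91, and 8.18 CPM, 5.51-fold below primed cells (log2 fold change -2.49, SE 0.18, adjusted p = 7.2e-08).

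TL2i libraries held 1.71, 2.93, and 4.16 CPM of FOXH1, 14.5-fold below primed cells. The means of t2iLGöY, 4i/L/b, NHSM-v, and LCDM cells lay between 1.17 and 0.374 CPM, that is 36.4-fold, 38.0-fold, 98.6-fold, and 114-fold below primed cells. All 5 decreases were called (edgeR adjusted p at most 1.1e-06), while their own order is not firm, because the library ranges of neighbours from TL2i to LCDM overlapped. In t2iLGöY the log2 fold change went from -5.12 to -5.74 without replicate 2. E-NHSM, primed, TL-CDK8i, and TL2i cells, by contrast, followed each other without overlap.

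SMAD7, the inhibitory SMAD that is itself a target of the pathway, kept a measurable level in every library. Primed libraries held 99.6 to 173 CPM with a median of 118 CPM. E-NHSM libraries, at 124, 135, and 132 CPM, lay inside that range (log2 fold change 0.02, SE 0.16, edgeR adjusted p = 0.95). NHSM-v libraries held 74.4, 70.3, and 62.6 CPM and TL-CDK8i libraries 66.5, 63.8, and 71.1 CPM, 1.87-fold and 1.92-fold below primed cells with overlapping ranges between them (adjusted p = 0.00026 and 4e-04). In 4i/L/b the values of 43.4, 44.2, and 48.7 CPM were 2.84-fold below (adjusted p = 6.9e-06). LCDM libraries held 27.3, 24.6, and 29.2 CPM, TL2i libraries 23.0, 23.5, and 17.5 CPM, and t2iLGöY libraries 22.5, 17.1, and 17.9 CPM. These were 4.77-fold, 6.04-fold, and 6.72-fold below primed cells (adjusted p at most 2.6e-07), with TL2i and t2iLGöY overlapping.

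**Figure D3:**
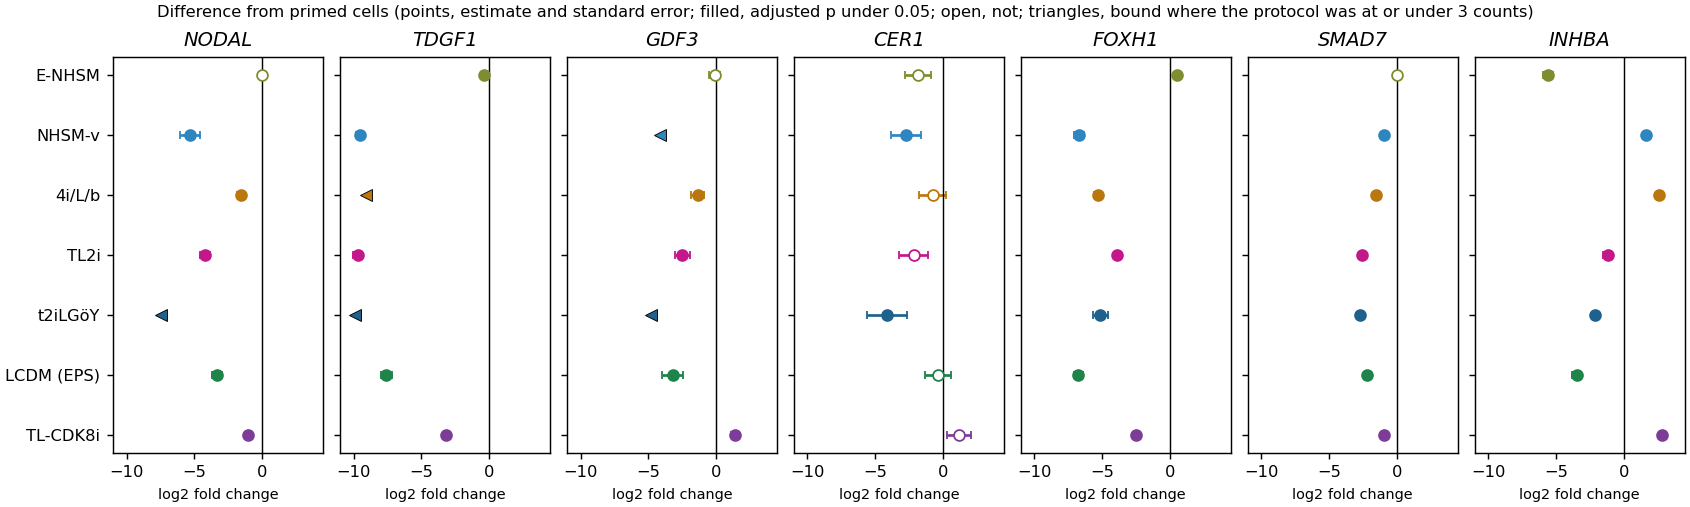
Log2 fold change of each of the 7 genes in each protocol against primed cells, 1 panel per gene, as points with bars of 1 SE, filled where the edgeR adjusted p was under 0.05, and as triangles at the bound where every library held 3 counts or fewer. TDGF1 lies left of 0 in all 7 protocols, NODAL, FOXH1, and SMAD7 in every protocol but E-NHSM, and INHBA lies right of 0 in NHSM-v, 4i/L/b, and TL-CDK8i.

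CER1, which encodes a secreted antagonist of Nodal and BMP ligands, split the primed libraries. Those whose columns carry the letter J held 14.1, 42.5, and 55.7 CPM, and those with the letter K held 1.56, 1.41, and 2.24 CPM. The J mean of 37.5 ± 21.3 CPM was 21.6-fold above the K mean of 1.74 ± 0.445 CPM (SD, n = 3 each), and the log2 difference of K minus J was -4.47 with an SE of 0.46 (edgeR adjusted p = 2.4e-05). In this comparison, which was added after the values had been seen, 3.73% of genes were called. SMAD7 also differed, with 152 ± 24.0 CPM in J and 106 ± 5.88 CPM in K (log2 difference -0.55, adjusted p = 0.02), and NODAL was at 46.5 ± 8.19 and 28.4 ± 5.01 CPM (adjusted p = 0.055). The other 4 members gave adjusted p of 0.32 or more. Of 9 endoderm markers, several early ones had higher means in J than in K libraries, with 4.38 against 0.616 CPM for FOXA2 (adjusted p = 0.17), 4.78 against 0.31 CPM for CXCR4, 3.84 against 0.143 CPM for GATA4, and 3.37 against 0 CPM for GATA6, the last 3 of which were too low to be tested. APOA1 (10.8 and 14.3 CPM) and AFP (5.85 and 12.3 CPM) ran the other way (adjusted p = 0.65 and 0.54), and the part of these genes in the CER1 difference was not tested. The labels give primed cells in separate sets, but the letters could not be assigned to them, so all 6 libraries were kept as 1 group.

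With all 6 primed libraries, CER1 was called lower in NHSM-v (3.10, 3.68, and 2.33 CPM, log2 fold change -2.74, SE 1.10, edgeR adjusted p = 0.045) and in t2iLGöY (3.19, 0.067, and 0 CPM, -4.12, SE 1.44, adjusted p = 0.025). It was not called in the other 5 protocols. Neither call was firm. The NHSM-v call was lost when any one of the J libraries (adjusted p = 0.06 to 0.093) or of the NHSM-v libraries (0.098 to 0.13) was left out, and the t2iLGöY call when t2iLGöY replicate 2 or 3 was left out (0.092 and 0.086). Without t2iLGöY replicate 1 the log2 fold change was -8.73. The library ranges of both groups overlapped those of primed cells, and in the order of means every neighbouring pair of groups overlapped.

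Set against J libraries alone, CER1 was lower in 6 protocols, by log2 fold changes of -1.28 in LCDM (edgeR adjusted p = 0.034) to -5.07 in t2iLGöY (adjusted p = 0.0015), and it did not differ in TL-CDK8i (0.23, SE 0.44, adjusted p = 0.69). Set against K libraries alone, it was higher in TL-CDK8i (4.68, SE 0.35, adjusted p = 1.2e-06), LCDM (3.16, adjusted p = 2e-05), 4i/L/b (2.79, adjusted p = 5.6e-05), and TL2i (1.34, adjusted p = 0.047). In E-NHSM and NHSM-v the values against K libraries were 1.70 (adjusted p = 0.052) and 0.78 (adjusted p = 0.39). The t2iLGöY value against K libraries was -0.63 (SE 1.43, adjusted p = 0.73), so its call of lower was lost there. The direction of the CER1 difference from primed cells therefore turned with the primed libraries chosen in 5 protocols, and it was called on both sides in LCDM, 4i/L/b, and TL2i. TL-CDK8i had the highest mean of all groups, with 32.6, 34.1, and 67.6 CPM.

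**Figure D4:**
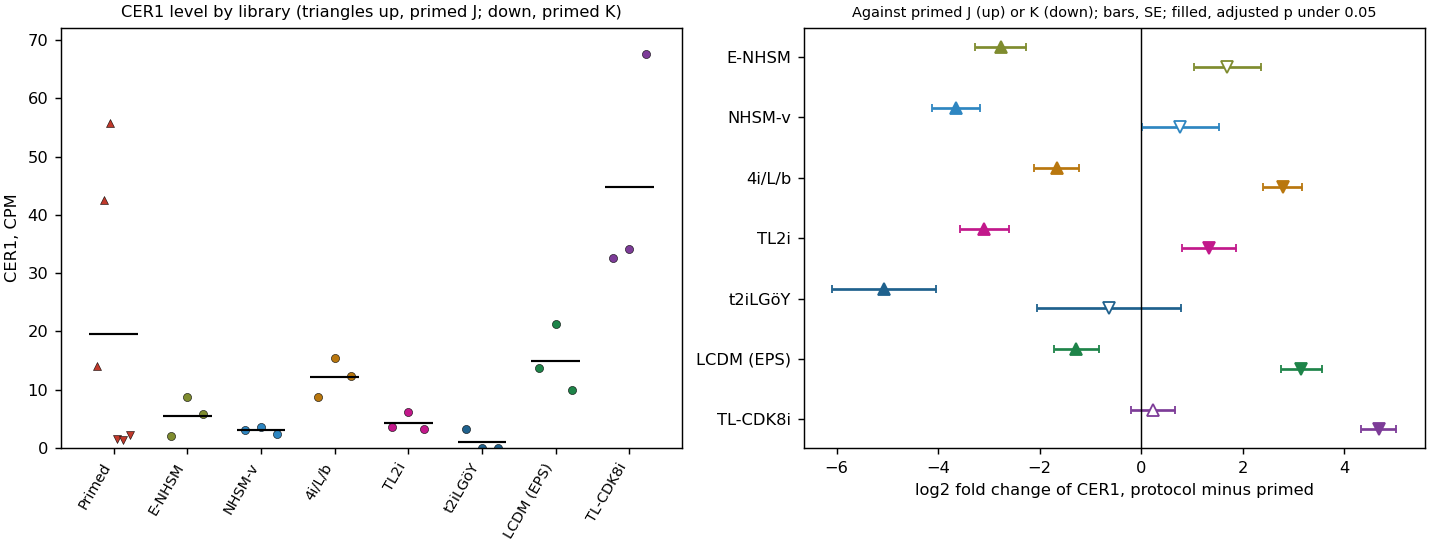
CER1 level in CPM on a linear axis in the 6 primed libraries, with triangles by column letter, and in the 7 protocols, with lines at the group means (left), and the log2 fold change of each protocol against J or K primed libraries alone with bars of 1 SE (right). The J libraries lie at 14.1 CPM or higher and the K libraries at 2.24 CPM or lower, and the points of every protocol but TL-CDK8i and t2iLGöY fall on opposite sides of 0 in the right panel.

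TL-CDK8i and TL2i share tamoxifen and LIF and differ in the inhibitors added, and they were compared directly, without the primed libraries. All 7 members were higher in TL-CDK8i, in a comparison in which 64.9% of genes were called and 31.5% were called higher. In each of them the lowest TL-CDK8i library exceeded the highest TL2i library. TDGF1 differed most, with 23.0 ± 9.94 CPM against 0.246 ± 0.265 CPM, a 93.3-fold difference (log2 fold change 6.55, SE 0.52, edgeR adjusted p = 1.5e-07). Of the TL2i libraries replicate 2 held 9 counts of TDGF1, and the log2 fold change was 7.90 without it and 5.88 without replicate 1. INHBA was at 397 ± 64.4 CPM against 24.3 ± 13.9 CPM, 16.3-fold higher, and GDF3 was 15.3-fold higher (log2 fold changes 4.02 and 3.93, adjusted p = 8e-08 and 2.9e-08). CER1, whose comparison here does not touch the divided primed libraries, was at 44.7 ± 19.8 CPM against 4.38 ± 1.63 CPM, 10.2-fold higher (log2 fold change 3.33, SE 0.30, adjusted p = 4e-07). NODAL was 9.44-fold higher (log2 fold change 3.25, adjusted p = 1.1e-06). SMAD7 and FOXH1 differed less, by 3.15-fold and 2.63-fold (adjusted p = 9.8e-08 and 0.0016). None of the 7 calls was lost under any alternative that tested the gene, including each library left out in turn.

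Within TL-CDK8i, replicate 3 was the highest and replicate 2 the lowest library for NODAL, TDGF1, FOXH1, GDF3, and SMAD7. The summed pluripotency markers followed the same order, with 2450, 1904, and 2592 CPM in replicates 1 to 3, and the fibroblast sum the opposite order, with 10071, 11326, and 8780 CPM. INHBA was highest in replicate 2 and lowest in replicate 3. CER1 followed neither order, with 32.6, 34.1, and 67.6 CPM in replicates 1 to 3. The part of these marker levels in the spread among the TL-CDK8i libraries was not tested.

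The rest of the pathway was read from a list of 45 genes by role, 42 of which were found in the tables. Leaving the members aside, 14 of the 30 genes tested were lower and 1 was higher with E-NHSM, where 15.1% of all genes were lower and 11.1% higher. With NHSM-v, 16 of 30 were higher and 9 lower, beside 28% and 30.6% of all genes. With TL-CDK8i, 11 of 32 were higher and 4 lower, beside 22.3% and 23.8%. The other counts were 11 higher and 7 lower of 33 in 4i/L/b, 7 and 10 of 32 in TL2i, 10 and 11 of 32 in t2iLGöY, and 12 and 9 of 32 in LCDM. Over all genes the shares called higher in these comparisons were 26.6%, 25.6%, 27.1%, and 28.2% in the same order, close to the shares called lower given above. The median log2 fold change of these genes was -0.52 with E-NHSM and 0.59 with NHSM-v, beside medians of 0.02 and -0.02 over all genes tested. In the direct comparison of TL-CDK8i with TL2i, 19 of 33 were higher and 7 lower, beside 31.5% and 33.3% of all genes.

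Among the ligands, TGFB2 and GDF11 were called higher in the 5 low-marker protocols, in all of which NODAL and GDF3 were lower. TGFB2 was at 8.37 ± 4.92 CPM in primed cells and at 447 ± 10.3 CPM in NHSM-v, a log2 fold change of 5.68 (SE 0.32, edgeR adjusted p = 9.2e-10). It was also higher in TL-CDK8i, at 265 ± 57.0 CPM (log2 fold change 4.94, adjusted p = 4.8e-08). GDF11, a ligand that uses activin receptors, rose from 17.5 ± 5.87 CPM to between 62.0 ± 3.81 CPM in 4i/L/b and 99.6 ± 8.70 CPM in LCDM (log2 fold changes 1.77 and 2.54, adjusted p = 2.9e-05 and 4.5e-07), and it was at 22.1 ± 4.33 CPM in TL-CDK8i (adjusted p = 0.42).

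TGFB3 was lower in E-NHSM, at 0.605 ± 0.641 CPM against 9.53 ± 2.86 CPM in primed cells (log2 fold change -3.98, SE 0.77, edgeR adjusted p = 0.00073), and higher in TL-CDK8i, at 123 ± 20.2 CPM (3.67, SE 0.23, adjusted p = 1.8e-08). TGFB1 was likewise higher in TL-CDK8i, at 10.4 ± 0.370 CPM against 2.37 ± 2.06 CPM (adjusted p = 0.027). INHBB, the βB subunit of activin B, was at the limit of detection in E-NHSM, at least 13-fold below its primed level of 2.17 ± 0.980 CPM (adjusted p = 0.018). FURIN, a protease known to cleave the precursors of these ligands, was higher in TL-CDK8i, at 85.7 ± 13.4 CPM against 35.1 ± 7.31 CPM (log2 fold change 1.26, adjusted p = 3.8e-05). TGFB1 and FURIN had their highest means in NHSM-v, at 15.1 ± 3.21 and 135 ± 6.47 CPM. Among the 5 low-marker protocols TGFB1 was called higher in 1, and FURIN higher in 1 and lower in 3. The FURIN call in TL2i was lost without any one of its libraries (edgeR adjusted p = 0.052 to 0.2). TGFB2 and TGFB3 had their highest means in NHSM-v, 4i/L/b, and TL-CDK8i, which also had the highest fibroblast sums. These means were 447, 310, and 265 CPM for TGFB2, with 59.9 CPM or less elsewhere, and 196, 51.2, and 123 CPM for TGFB3, with 36.2 CPM or less elsewhere, and the part of fibroblast-like expression in them was not tested. The TGFB1 call was lost without any one of the TL-CDK8i libraries (adjusted p = 0.076 to 0.078), and the INHBB call without E-NHSM replicate 1 (0.074) or 3 (0.079). Without E-NHSM replicate 2 the log2 fold changes of TGFB3 and INHBB were -5.14 and -7.80.

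Of the receptors, TGFBR1, the type I receptor for TGF-β, was at 219 ± 29.1 CPM in primed cells and was higher in the 5 low-marker protocols, from 390 ± 37.9 CPM in t2iLGöY to 562 ± 30.0 CPM in LCDM (log2 fold changes 0.87 and 1.40, edgeR adjusted p = 4.9e-06 and 2.1e-08). ACVR1B, the type I receptor used by activin and Nodal, was lower in E-NHSM, at 32.6 ± 5.16 CPM against 67.1 ± 8.28 CPM (log2 fold change -1.04, SE 0.15, adjusted p = 4.8e-05), and in TL-CDK8i it was at 88.9 ± 3.29 CPM (0.37, adjusted p = 0.019). TGFBR2 and TGFBR3, a type II receptor and a TGF-β co-receptor, were lower in E-NHSM as well, with log2 fold changes of -1.22 and -1.81 (adjusted p = 0.0067 and 0.00018). Among the 5 low-marker protocols, ACVR1B was called higher in 2 and lower in 1, TGFBR2 higher in 3 and lower in 2, and TGFBR3 lower in 3. The ACVR1B call in TL-CDK8i was lost without its replicate 1 (adjusted p = 0.061) or 2 (0.051), and the TGFBR2 call in E-NHSM without its replicate 2 (0.055) or against J primed libraries alone (0.11). The ACVR1B and TGFBR2 calls in 4i/L/b were lost without any one of its libraries (edgeR adjusted p = 0.057 to 0.19).

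Among the transducers, SMAD4, the common partner, was higher in the 5 low-marker protocols, from 87.7 ± 6.63 CPM in 4i/L/b to 115 ± 6.06 CPM in NHSM-v against 63.7 ± 11.9 CPM in primed cells (log2 fold changes 0.41 and 0.80, edgeR adjusted p = 0.024 and 0.00017). FOXH1 fell in the same protocols, so the role group of 4 genes moved in both directions. The SMAD4 call in 4i/L/b was lost without its replicate 2 (adjusted p = 0.058) or 3 (0.11) and against K primed libraries alone (0.06).

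Among the inhibitors, FST and TGIF1 were lower in the 5 low-marker protocols together with SMAD7. FST encodes follistatin, which binds and neutralizes activins. It was at 476 ± 45.9 CPM in primed cells, at 180 ± 13 CPM in E-NHSM (log2 fold change -1.40, SE 0.09, edgeR adjusted p = 2e-09), and at 31.2 ± 8.57 CPM in t2iLGöY (-3.90, SE 0.16, adjusted p = 6.8e-11). In TL-CDK8i, where INHBA was highest, FST was at 545 ± 40.4 CPM (0.17, adjusted p = 0.13). TGIF1, a repressor that binds SMAD complexes, was lower in all 7 protocols, from 271 ± 17.4 CPM in E-NHSM to 40.7 ± 3.66 CPM in LCDM against 350 ± 16.7 CPM in primed cells (log2 fold changes -0.37 and -3.07, adjusted p = 0.0012 and 6.3e-12). FSTL3, a follistatin-like activin antagonist, was higher in the 5 low-marker protocols and in TL-CDK8i, with 0.370 ± 0.302 CPM in primed cells and 31.8 ± 4.78 CPM in NHSM-v (log2 fold change 6.26, adjusted p = 3.2e-08). The FSTL3 call was lost in LCDM without any one of its libraries (adjusted p = 0.054 to 0.09), and in t2iLGöY without its replicate 1 (0.07) or 3 (0.21), without primed J2 or K3 (0.052 each), and against J libraries alone (0.071). BAMBI, a pseudoreceptor, was higher in E-NHSM, at 32.4 ± 2.37 CPM against 14.9 ± 4.91 CPM (log2 fold change 1.13, adjusted p = 0.0022), and TGIF2 was lower in TL-CDK8i, at 38.7 ± 6.48 CPM against 107 ± 19.1 CPM (-1.50, adjusted p = 4e-06). BAMBI was also called higher, and TGIF2 lower, in 4 of the 5 low-marker protocols. The highest BAMBI means were 136 ± 24.2 CPM in t2iLGöY and 107 ± 13.7 CPM in NHSM-v. The BAMBI call in 4i/L/b was lost without its replicate 2 (edgeR adjusted p = 0.083) or 3 (0.12), and the TGIF2 call in NHSM-v without any one of its libraries (0.091 to 0.13).

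Among the mesendoderm targets, MIXL1 was lower in the 5 low-marker protocols. It was at 10.8 ± 5.75 CPM in primed cells, with a log2 fold change of -2.54 in 4i/L/b and -4.19 in t2iLGöY (adjusted p = 0.0016 and 0.0041), and it remained at 12.3 ± 5.55 CPM in TL-CDK8i (adjusted p = 0.81). EOMES, a T-box factor of early mesendoderm, was at 9.45 ± 3.46 CPM in primed cells, at 0.0991 ± 0.0769 CPM in E-NHSM (log2 fold change -6.41, SE 0.67, adjusted p = 1.1e-06), and at 55.1 ± 21.1 CPM in TL-CDK8i (2.51, SE 0.28, adjusted p = 5.3e-06). LHX1 and T, the Brachyury gene, were higher in TL-CDK8i as well, LHX1 at 33.6 ± 0.879 CPM against 4.71 ± 6.45 CPM and T at 5.31 ± 1.93 CPM against 0.556 ± 0.933 CPM (log2 fold changes 2.84 and 3.21, adjusted p = 0.0098 and 0.039). Lower calls of EOMES came in 4 of the 5 low-marker protocols too. LHX1 had its highest mean in LCDM, where it was also called higher, at 81.0 ± 5.99 CPM (log2 fold change 4.24). Its means of 20.3 CPM in 4i/L/b and 13.5 CPM in NHSM-v were not called. LHX1 also split the primed libraries, with 0.889, 9.23, and 15.9 CPM in J and 0.635 to 0.865 CPM in K. It was called lower in E-NHSM, at 0.166 ± 0.288 CPM (adjusted p = 0.03), but not without primed J2 (0.067) or J3 (0.074) or without E-NHSM replicate 1 or 3 (0.1 each). In TL-CDK8i and LCDM its log2 fold changes were 3.78 and 5.16 without J3 (edgeR adjusted p = 0.00045 and 8.3e-06). The T call in TL-CDK8i was lost without primed K2 (0.068), without any one TL-CDK8i library (0.075 to 0.16), and against J libraries alone (0.084), and its log2 fold change was 4.66 without primed J1. MIXL1 in t2iLGöY was at -9.94 without its replicate 1, and EOMES in E-NHSM at -7.19 without its replicate 1. The summed level of the 9 endoderm markers was 79.3 to 100 CPM in TL-CDK8i, 24.8 to 38.9 CPM in primed libraries, 10.7 to 13.1 CPM in E-NHSM, and 66.0 to 328 CPM in the 5 low-marker protocols, and its part in these values was not tested. The alternatives for pathway genes were added after the values had been seen.

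**Figure D5:**
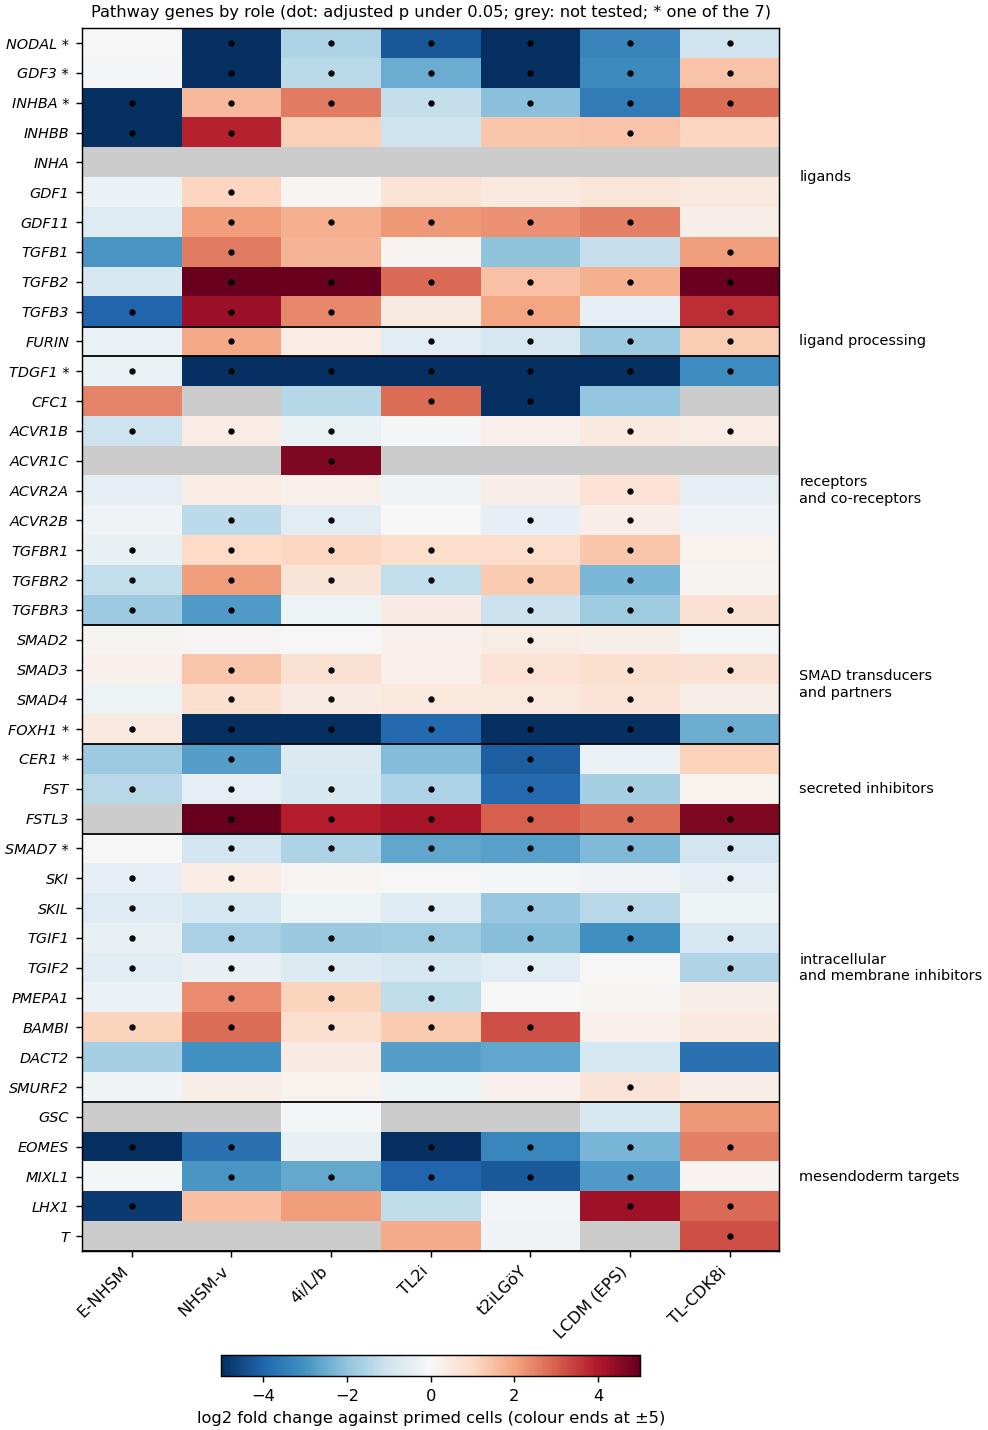
Log2 fold change of pathway genes (rows, by role) in each of the 7 protocols against primed cells (columns), as colour from blue for lower to red for higher that ends at 5 in each direction, with a dot where the edgeR adjusted p was under 0.05, grey where not tested, and an asterisk at the 7 members. Most E-NHSM cells with a dot are blue, as 16 of 37 genes tested over the whole list were lower and 2 higher, and most TL-CDK8i cells with a dot are red, as 13 of 39 were higher and 8 lower. Over all genes, 11.1% were higher and 15.1% lower with E-NHSM and 22.3% higher and 23.8% lower with TL-CDK8i.

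The genes whose levels were most like those of each member were read from Pearson correlations of log2 CPM over the 27 libraries, among 14685 genes. These libraries fall into 8 groups that share media within a group, and the values describe this set of groups only. TDGF1 was closest to TERF1 (r = 0.973), FOXN3 (0.973), and C1QBP (0.971), and FOXH1 to ENPP1 (0.958), PIM2 (0.958), and HSPE1 (0.957). NODAL was closest to MAPK12 (0.913), TULP1 (0.912), and CLDN14 (0.907), and GDF3 to BCAT1 (0.947), SFN (0.941), and UGT3A2 (0.937). SMAD7 was closest to ANKRD28 (0.952), THBS2 (0.943), and NFE2L3 (0.932), and INHBA to AMOTL1 (0.959), FBLIM1 (0.955), and TM9SF3 (0.941). CER1 had the weakest partners, FGF17 (0.817), ERAL1 (0.796), and GGT1 (0.735).

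Between members, the correlation was 0.913 for TDGF1 with FOXH1 and 0.870 for NODAL with GDF3. INHBA gave values from -0.171 to 0.321 with the other 6.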

How the data were processed

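RNA was measured in 27 libraries, 6 of primed cells and 3 for each of 7 protocols. The authors prepared directional mRNA libraries and deposited, for each library, a column of unnormalized counts by gene symbol. The submitters' processing notes name bcl2fastq, cutadapt, HISAT2, and HTSeq. Versions, genome build, and annotation are not given in the sources used here. Column names placed every column in a group, with 0 left over. Columns of primed cells show their group only.

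Each protocol was compared with primed cells in a fit of its own in edgeR 4.0.16 (R 4.3.3) with TMM scaling, filterByExpr, and the quasi-likelihood test, with Benjamini-Hochberg adjustment over all genes tested and a threshold of 0.05. Standard errors are the log2 fold change divided by the square root of F. Folds are ratios of mean CPM. Where every library of a group held 3 counts or fewer, the bound was taken against the highest CPM that 3 counts give in a library of that group. Alternatives used DESeq2 1.42.0, other scalings, filters, and samples, and the code was tested on simulated counts. No replicates of a group agreed within sampling noise.

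The members and lists were chosen with earlier results of these data known. The text names the members, the pathway genes called in 1 direction in all 5 of LCDM, t2iLGöY, NHSM-v, TL2i, and 4i/L/b or changed by an absolute log2 fold change of at least 1 in E-NHSM or TL-CDK8i, and, for each member with a group mean of at least 10 CPM, the 3 genes most like it. The comparison of primed letters, and the libraries left out for pathway genes, were added after seeing the data. A planned scan of promoter motifs was not run, and no sequences or coordinates were used here. A pathway gene that is not reported here is included in the counts of the list.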

Additional observations from a re-analysis of the deposited data

Results flagged for a closer look

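FOXH1 in the primed library J1, at 51.0 CPM, lay far from the other 5 primed libraries, which held 39.5 to 43.1 CPM. Its distance to the nearest of them was 0.689 of the range of the group, above Dixon's critical value for 6 samples. All 7 members were examined in the primed group, and such a distance arises by chance in a small share of groups at this confidence level. Without this library the log2 fold change of FOXH1 in E-NHSM was 0.56 (edgeR adjusted p = 0.0056).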

How the results depend on the processing

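No call of a member in the direct comparison of TL-CDK8i with TL2i, and no call of TDGF1, FOXH1, SMAD7, or INHBA in a protocol other than E-NHSM, was lost or turned under any alternative that tested the gene. With all 8 groups in one fit, E-NHSM changed 5255 genes in place of 3486 and 1 member in place of 3, CER1 in TL2i was called (adjusted p = 0.04), and NODAL in TL-CDK8i was not (adjusted p = 0.07). With at least 10 counts in every library, members at or near 0 were not tested, and 3 members were called in NHSM-v, 2 in t2iLGöY, and 3 in LCDM. Without 1 library, E-NHSM changed 1 to 3 members. Against primed J libraries alone, E-NHSM gave log2 fold changes of -0.31 for NODAL, 0.094 for GDF3, and -0.23 for SMAD7. Against primed K libraries alone, those of CER1 were 1.70 in E-NHSM, 0.78 in NHSM-v, 2.79 in 4i/L/b, 1.34 in TL2i, and 3.16 in LCDM, and SMAD7 in E-NHSM was called at 0.32. Leaving out 1 library at a time moved uncalled values across 0: NODAL in E-NHSM from -0.090 to 0.18, SMAD7 from -0.045 to 0.12, GDF3 from -0.25 to 0.10, and CER1 in LCDM from -0.67 to 0.33. The level of INHBA in NHSM-v was 162 CPM by library totals in place of 176 CPM. The cause of these changes was not tested.

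With a replicate block, CER1 in NHSM-v (-2.51, adjusted p = 0.084), GDF3 in 4i/L/b (-1.36, adjusted p = 0.051), and CER1 in t2iLGöY (-4.24, adjusted p = 0.059) were no longer called, and no other call of a member changed. The deviations of samples with the same number from their group means correlated between -0.121 and 0.0151 over genes. Such values cannot show whether these samples shared a culture or a batch, and the primed J and K libraries of each number were averaged in this check. The block changed 3171 genes in E-NHSM and 8420 in TL-CDK8i against TL2i.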
